A study of Mus musculus with 4 samples.

Results

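The cytosolic ribosomal protein genes encode the protein part of the ribosome that translates nuclear-encoded mRNAs. They were chosen by name only: every non-control probe whose accession led to a mouse symbol of Rpl or Rps followed by a number, with Rpsa, Rplp0, Rplp1 and Rplp2 added and with the Rps6k kinases and pseudogenes left out. The rule found 85 genes among the 20145 genes that the array probes could be tied to, and 172 probes covered them. They comprised 43 genes of the large subunit, 30 of the small subunit, 3 of the stalk of the large subunit, 7 paralogs, the retrogene Rps23rg1, and Rps19bp1. The last of these encodes a protein that binds RPS19 and is not itself a ribosomal protein. Rps23, Rpl32l, Rpl37rt and Rps27rt met the naming rule, but no probe could be tied to them by its accession.

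RNA came from the brown adipose tissue (BAT) of 8-week-old male transgenic (Tg) mice on the C57/BL6N background. All 4 mice, the controls included, carried Fv2E-PERK, in which the kinase domain of the eIF2α kinase PERK is joined to a dimerization domain that the small molecule AP20187 (AP) brings together. The transgene is driven by the promoter of aP2, a lipid-binding protein of adipocytes, and that promoter is also active in monocytes and macrophages. A pair of mice received vehicle and another pair AP, given in the labels as 1 ng per g body weight by intraperitoneal injection, and BAT was taken 12 h later, 1 Agilent one-colour array for each mouse. No array of a wild-type mouse was analysed here, so an effect of AP without the transgene cannot be told apart from one through it. The labels number the replicates and do not describe how the animals were housed or taken, so p-values measure only the spread between these samples. The question put to these genes was whether activating the kinase moved the mRNAs of the ribosome itself.

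A ribosome carries a single copy of nearly all of its proteins, and a cell makes those proteins in matched amounts. Their mRNAs are long-lived and abundant, and most begin with a C followed by a run of pyrimidines, the terminal oligopyrimidine (TOP) sequence, through which the growth-regulating kinase mTORC1 controls their translation. Phosphorylation of eIF2α lowers general translation initiation, and through the factor ATF4 it switches on genes of the integrated stress response (ISR). Brown adipocytes burn fat to make heat and renew a large store of mitochondrial and cytosolic proteins. An array reads mRNA amount only, so nothing here measures translation.

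The start of the gene is shown because the TOP sequence is the feature by which these mRNAs are usually recognised. The sequences are from the RefSeq promoter table of build GRCm38.p6, each runs 5′ to 3′ on the strand of the gene from 40 bases before the annotated start to 20 bases that begin with it, and capitals mark a C with at least 4 pyrimidines after it at, or within 5 bases of, the start. The first 4 genes have the run at the annotated start itself, Rps27l has it 1 base further on, and Rpl3l and Rpl41 have no such run within 5 bases.
Rps6, chr4:86857348-86857407, minus strand: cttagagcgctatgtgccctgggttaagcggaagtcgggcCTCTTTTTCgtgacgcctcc
Rps18, chr17:33955646-33955705, minus strand: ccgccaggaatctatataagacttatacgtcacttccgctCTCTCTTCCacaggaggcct
Rps27, chr3:90213629-90213688, minus strand: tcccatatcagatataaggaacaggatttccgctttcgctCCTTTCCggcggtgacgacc
Rplp2, chr7:141447611-141447670, plus strand: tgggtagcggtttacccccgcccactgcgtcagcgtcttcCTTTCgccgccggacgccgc
Rps27l, chr9:66946046-66946105, plus strand: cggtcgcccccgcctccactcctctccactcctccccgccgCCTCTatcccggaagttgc
Rpl41, chr10:128549149-128549208, minus strand: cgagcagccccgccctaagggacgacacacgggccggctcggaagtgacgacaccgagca
Rpl3l, chr17:24727786-24727845, plus strand: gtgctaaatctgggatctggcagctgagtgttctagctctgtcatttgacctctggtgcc

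Of the 76 subunit and stalk genes, 56 had an entry in that table. A run placed exactly at the annotated start was found in 13 of the 56 (23.2%), against 813 (3.01%) of all 27025 genes of the table, and a run within 5 bases of it in 26 (46.4%), against 21.2%. An annotated start that is a few bases off hides a run that the mRNA may carry, so these shares describe the annotation and not the mRNAs. The letters CGGAAG were searched on either strand of the 300 bases from 250 before to 50 from the start. They were present in 40 of the 56 genes (71.4%) against 18.8% of all genes of the table. They are the core read by the ETS family of factors. In all of these counts a gene with several annotated starts was counted if any of them had the match. TGATGCA, the core of the element that ATF4 and C/EBP factors read, was searched on both strands and stood in 0 of the 56, against 3.63% of all, while TATAAA stood in 6, against 15.7%. A match to such letters is a description and shows no binding.

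The arrays gave a usable reading of the genes in every mouse. Between 46.4% and 49.0% of spots were well above background, no spot was saturated, and all arrays came from 1 slide and 1 scan. On that slide the vehicle and AP samples held different positions, and position and treatment cannot be told apart. All 11 genes of a brown adipose list, Ucp1 among them, were well above background on all 4 arrays. The list includes Fabp4, Adipoq and Pparg, which are not specific to brown fat. The summed level of the 11 genes was 8780 and 5809 in the vehicle mice and 7152 and 8029 in the AP mice. Levels throughout are signal divided by the 75th percentile of the same array, and they are given as log2 except where a summed level is named. Single brown adipose markers could differ widely within a group. Elovl3 was at 6.08 and -1.07 with vehicle and 3.52 and 5.76 with AP. Dio2 was at 0.49 and 1.53 with vehicle and -1.78 and 3.33 with AP. Both were named after their values were seen. Known targets of the pathway stood higher with AP in both mice: Trib3, an ATF4 target, was at 2.78 and 2.33 with vehicle and at 6.26 and 8.01 with AP (log2 fold change 4.57, SE 0.63), and Ddit3, which encodes the stress factor CHOP, was at 2.18 and 1.86 against 3.03 and 4.22 (log2 fold change 1.61, SE 0.45). Neither passed the limma test after Benjamini-Hochberg adjustment over 24973 probes (adjusted p = 0.80 for both), and 0 probes did (0.0%), while 1515 (6.07%) had an unadjusted p under 0.05. A test that 2 mice a group do not pass sets no small bound on a gene, and the 95% intervals printed with the genes give the bound.

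The ribosomal protein genes kept close to their vehicle level at 12 h. Of the 85 genes, 84 were well above background on all 4 arrays and entered the test, and only the testis paralog Rpl10l was well above background on 0 arrays. None of the 84 passed the adjusted threshold, where 0.0% of all 12791 genes did, and 0 had an unadjusted p under 0.05 by limma, where 6.04% of all genes did (3.78% higher and 2.26% lower). Their log2 fold changes, AP over vehicle, had a median of -0.02, with 36 genes higher and 48 lower, beside a median of 0.01 and 51.4% higher over all genes. That sign is set by the scaling: with each array centred on its own median, the median was 0.07 with 57 of 84 higher (all genes 0.10), and in the authors' own log2 values it was -0.19 with 5 of 84 higher (all genes -0.15), so relative to the median of all genes it lay between -0.09 and -0.00 under every scaling and background correction tried. The methods' unpaired t-test, which uses the spread of each gene alone, gave 9 of the 84 an unadjusted p under 0.05, 4 higher and 5 lower, where 5.8% of all genes had one.

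The narrow spread over the 76 subunit and stalk genes was the clearest feature of the set. Their log2 fold changes ran from -0.41 (Rpl41) to 0.24 (Rps14), with quartiles of -0.10 and 0.06 and an SD of 0.13, and 68 of the 76 (89.5%) lay within 0.25 of 0. Over all genes tested the quartiles were -0.23 and 0.25, the SD was 0.47, and 51.4% lay within 0.25. Bright probes are read more precisely, so the same was computed for the 1126 other genes with a mean log2 level of at least 5, where 75 of the 76 genes also lie: their quartiles were -0.18 and 0.19, their SD was 0.41, and 60.0% lay within 0.25. The match in brightness was incomplete: in vehicle replicate 1 the median level was 7.43 for the 76 genes and 6.28 for the 1126. The median difference of vehicle replicate 2 from vehicle replicate 1 was 0.04 for the 76 and -0.31 for the 1126. The sets most like these genes were also narrow by that share. Of the 18 translation partner genes described below, 83.3% lay within 0.25, with quartiles of -0.06 and 0.14 and an SD of 0.25. All 3 measured ribosomal protein genes with other symbols lay within 0.25. These are descriptions and no test was made of the difference in spread. Many of these probes share near-identical sequence with processed copies elsewhere in the genome, and what such copies add to a probe's signal was not tested.

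**Figure D1:**
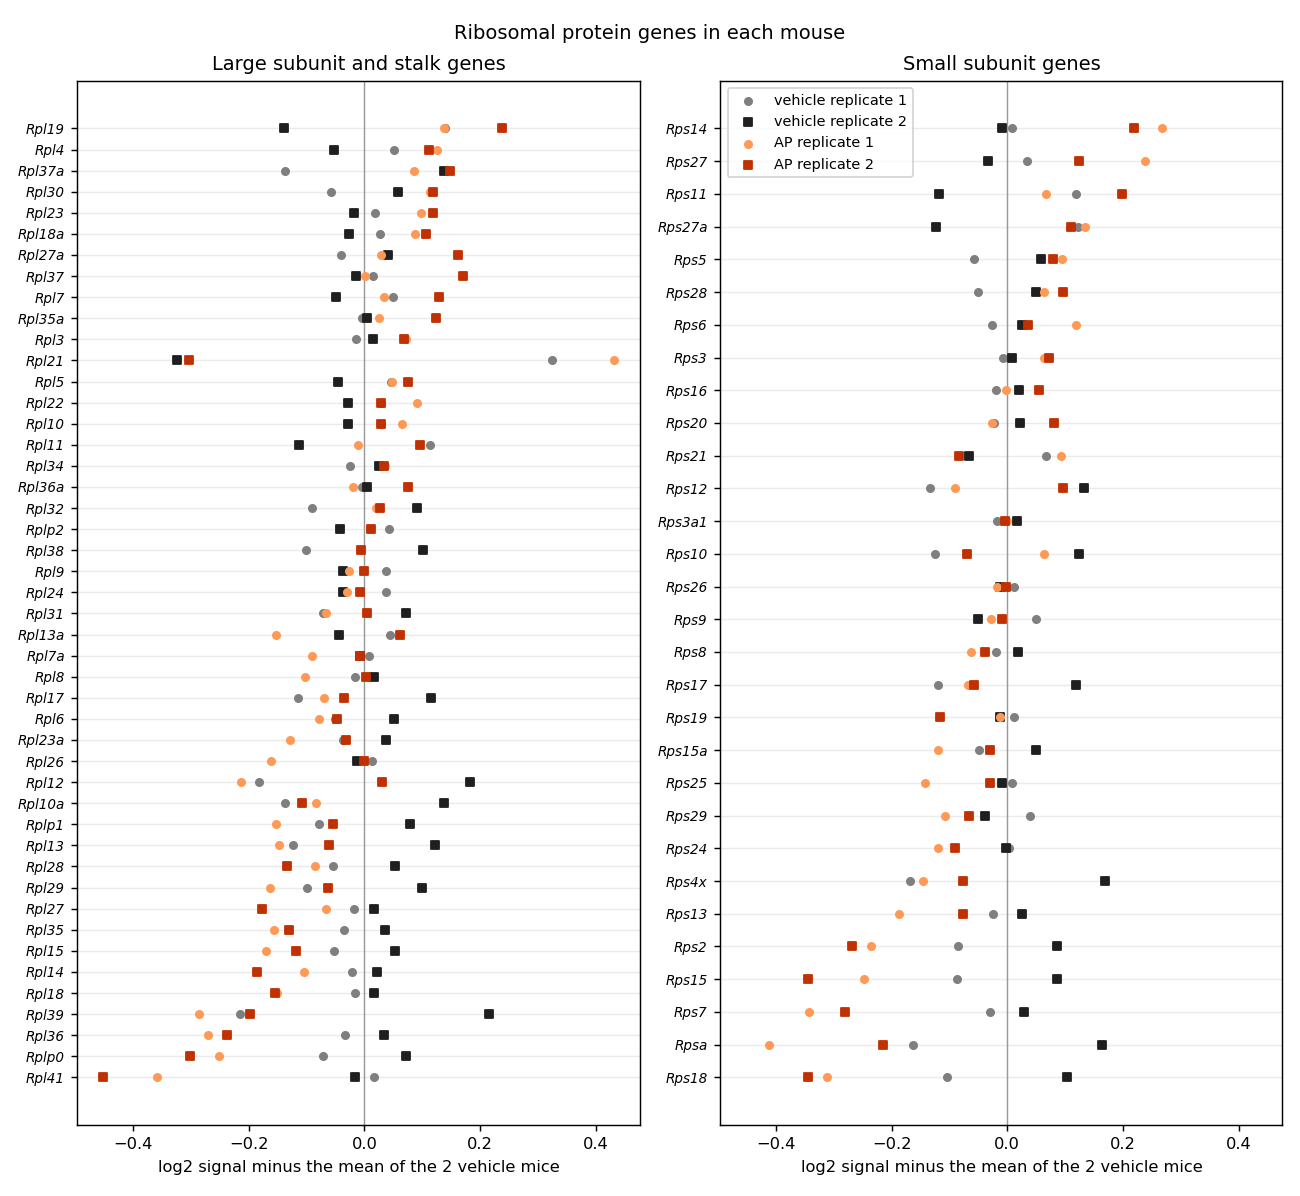
Log2 level of each subunit and stalk gene in each mouse, as the difference from the mean of the vehicle mice, with genes ordered by their log2 fold change; circles are replicate 1, squares replicate 2, grey and black vehicle, orange and red AP. Nearly all points lie within 0.4 of the vehicle mean, and Rpl21 stands out for a spread that follows the replicate number. AP points lie left of both vehicle points for 21 genes (27.6%, against 17.3% of all genes), mostly at the foot of each panel. They lie right of both for 14 (18.4%, against 20.1%). With each array centred on its own median the counts became 9 left (11.8%, against 11.3%) and 25 right (32.9%, against 24.8%).

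The replicates of these genes were also close to each other. The median distance between the mice of a group was 0.09 for vehicle and 0.06 for AP on the log2 scale. The median standard error computed from a gene's own 4 values was 0.06 for the 76 genes, 0.24 for the other bright genes and 0.26 for all genes. limma draws each gene's variance toward that of all probes, which raised the median standard error of the 76 to 0.20 and is why the t-test and limma counts differ. With it, the 95% confidence intervals of the single genes ran from -0.94 to 1.07, and from -0.94 to 0.77 without Rpl21, so differences of the size seen here were not detectable for a single gene. Over the set, the median deviation from each gene's mean was 0.00 and 0.02 on the vehicle arrays and -0.03 and 0.00 on the AP arrays. The summed level of the 76 genes was 15693 and 16215 in the vehicle mice and 15379 and 15722 in the AP mice, so the groups overlapped. In tissue RNA, fewer cells of a type and less RNA per cell cannot be told apart, and scaling each array to its own percentile removes any change that all mRNAs share.

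The 43 large subunit genes had a median log2 fold change of -0.02, with 19 higher and 24 lower, and ran from -0.41 (Rpl41) to 0.19 (Rpl19). Both AP mice were above both vehicle mice for 8 of them and below both for 9 (20.9%), where 20.1% and 17.3% of all genes were. Rpl41, which encodes a very short basic peptide of the large subunit, was at 9.15 and 9.12 with vehicle and at 8.78 and 8.68 with AP. The groups did not overlap, the level with AP was 0.755 of that with vehicle (log2 fold change -0.41, SE 0.20, 95% interval -0.94 to 0.13), and the limma adjusted p was 0.80. It had the largest difference of the 76 genes, and it passed an unadjusted 0.05 in the t-test and in limma with a variance trend, where 6.68% of all genes did. Rpl19, a large subunit protein, was at 7.42 and 7.15 with vehicle and 7.42 and 7.52 with AP (log2 fold change 0.19, SE 0.22, limma adjusted p = 0.87, 0.05 to 0.33 with a mouse left out), and AP replicate 1 lay level with vehicle replicate 1. For a single gene the exact two-sided permutation test over 2 against 2 mice cannot go below 0.333, the value it gave for Rpl41.

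The 30 small subunit genes had a median log2 fold change of -0.01, with 12 higher and 18 lower. Both AP mice were below both vehicle mice for 11 genes (36.7%, against 17.3% of all genes) and above for 6 (20%, against 20.1%). With each array centred on its own median these counts became 6 below and 10 above, and those of the large subunit 2 below and 15 above, where 11.3% of all genes were below and 24.8% above. Rps18, a protein of the head of the small subunit, was at 6.19 and 6.40 with vehicle and 5.98 and 5.95 with AP (log2 fold change -0.33, SE 0.21, limma adjusted p = 0.81). Its groups did not overlap on the brighter probe, but a second probe gave a log2 fold change of 0.00. Rpsa, which encodes a small subunit protein also known as the precursor of the laminin receptor, was at 8.86 and 9.19 with vehicle and 8.61 and 8.81 with AP (log2 fold change -0.31, SE 0.23, limma adjusted p = 0.82). Of its other probes, 2 gave -0.56 and -0.36 and a dim one gave 0.13. Both AP mice lay below both vehicle mice, the value ran from -0.48 to -0.15 with a mouse left out, and the probes of Rpsa covered the widest range of any gene of the set, 0.69 on the log2 scale.

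At the other end, Rps14 was at 9.25 and 9.24 with vehicle and at 9.51 and 9.47 with AP (log2 fold change 0.24, SE 0.20, limma adjusted p = 0.83). RPS14 lies on the platform of the small subunit, and its groups did not overlap. Rps27, which encodes a zinc-finger protein of the small subunit, was at 7.79 and 7.72 with vehicle and 7.99 and 7.88 with AP (log2 fold change 0.18, SE 0.20, limma adjusted p = 0.86), again with both AP mice above both vehicle mice. Rps14 and Rps27 on one side and Rps18 and Rpsa on the other encode parts of the same subunit, and the 95% interval of each of these differences included 0.

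Counting both subunits and the stalk, 6 of the 76 genes were at least 1.2-fold lower with AP and 0 were at least 1.2-fold higher, a split that depends on the scaling: with each array centred on its own median it was 1 lower (Rpl41) and 3 higher (Rpl19, Rps14 and Rps27), and in the authors' log2 values 21 lower and 0 higher. In the scaling used here the 6 were Rpl41, Rps18, Rpsa, Rplp0, Rps7 (-0.31, SE 0.20) and Rps15 (-0.30, SE 0.21). Rps7 and Rps15 were named after their values were seen, and the limma adjusted p of the 6 lay between 0.80 and 0.82. In all 6 the AP mice lay below the vehicle mice, which adds little because these genes were picked for a lower mean. The genes that the t-test put under an unadjusted 0.05, also named after their values were seen, were Rps14, Rpl23 (0.11), Rpl3 (0.07) and Rps3 (0.07) among the higher ones and Rpl41, Rpl36 (-0.25), Rps7, Rpl18 (-0.15) and Rps24 (-0.11) among the lower ones. Most of these are differences of under 1.2-fold between mice that were very close within each group. Other probes of the same genes gave 0.20 and 0.28 for Rpl23, -0.05 and -0.14 for Rpl36, and -0.01 and -0.15 for Rps24. For Rps3 the other probe had the opposite sign, -0.11.

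The stalk recruits the translation factors that bind GTP to the ribosome. RPLP0 anchors it, and RPLP1 and RPLP2 form its flexible arms. Rplp0 was at 8.85 and 8.99 with vehicle and at 8.66 and 8.61 with AP (log2 fold change -0.28, SE 0.20, limma adjusted p = 0.82), with no overlap, and its other probes gave -0.26 and -0.14. Rplp1 was at 7.74 and 7.89 against 7.66 and 7.76 (log2 fold change -0.10, SE 0.21), and Rplp2 at 9.62 and 9.53 against 9.58 and 9.58 (log2 fold change 0.01, SE 0.20, 95% interval -0.52 to 0.54). The mice overlapped for both arm genes. Rplp0 is a common reference gene in quantitative PCR, and here its level with AP was 0.825 of the vehicle level, a difference the test did not separate from 0.

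Several ribosomal proteins also act outside the ribosome, and their mRNAs differed little. RPL5 and RPL11, which with 5S rRNA bind the p53 regulator MDM2, had levels of 5.14 and 5.05 against 5.15 and 5.17 (log2 fold change 0.06, SE 0.20) and of 8.85 and 8.62 against 8.72 and 8.83 (0.04, SE 0.21). Rpl13a, whose protein can leave the ribosome to silence inflammatory mRNAs, was at 7.18 and 7.09 against 6.98 and 7.19 (-0.05, SE 0.21). Rpl22, an RNA-binding protein needed for T cell development, was at 7.02 and 6.97 against 7.09 and 7.02 (0.06, SE 0.20). The groups overlapped for Rpl11 and Rpl13a, and for Rpl5 and Rpl22 the nearest mice of the groups were level. The signs of Rpl5, Rpl11, Rpl22, Rps6 and Rps27a turned negative in the authors' log2 values, where the median of all genes was -0.15. Second probes of Rpl13a and Rpl22, dimmer than the first but well above background on all 4 arrays (mean levels 2.97 and 2.28), gave 0.27 and 0.51. Rps6, the substrate of the S6 kinases below mTORC1, was at 7.09 and 7.14 against 7.24 and 7.15 (0.08, SE 0.20), and Rps27a, made as a fusion to ubiquitin, at 7.55 and 7.30 against 7.56 and 7.53 (0.12, SE 0.21). Ribosomal proteins that carry other symbols were as flat: Fau, a fusion to a ubiquitin-like protein, had a log2 fold change of 0.02, and Rack1, a scaffold on the small subunit, -0.06.

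The paralogs are close relatives of a subunit gene that replace it in particular tissues or act in ribosome assembly, and their values were less uniform than those of the subunit genes. Of the 6 that were measured, 3 were higher and 3 lower, between -0.47 and 0.83. The lowest and the highest, Rpl7l1 and Rpl3l, had dim probes (mean levels -0.13 and -0.36), as had Rpl39l (-0.27). The median standard error from a gene's own 4 values was 0.27 for the paralogs and 0.06 for the subunit and stalk genes. The brighter Rps27l, Rpl36al and Rpl22l1 lay between -0.07 and 0.21, within the range of the subunit genes. Rpl7l1, linked to early assembly of the large subunit, was at 0.35 and -0.15 with vehicle and at -0.53 and -0.21 with AP (log2 fold change -0.47, SE 0.28, limma adjusted p = 0.80). Its AP mice lay below the vehicle mice, narrowly so for vehicle replicate 2 and AP replicate 2, and the value ran from -0.72 to -0.22 with a mouse left out. Rpl22l1, which can stand in for Rpl22, was at 4.93 and 4.80 with vehicle and 5.20 and 4.95 with AP (log2 fold change 0.21, SE 0.22, limma adjusted p = 0.86, and 0.09 to 0.33 with a mouse left out), and both AP mice lay above both vehicle mice.

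Rps27l, a p53 target, was at 6.99 and 6.50 with vehicle and at 6.69 and 6.79 with AP, and the log2 difference was -0.00 (SE 0.26), with both AP mice between the vehicle mice. Rpl36al gave -0.07 (SE 0.23) and Rpl39l, best known from testis, 0.10 (SE 0.30), and both overlapped. Rps4l, which RefSeq lists as a transcribed pseudogene and which is therefore not counted among the 85, gave 0.14 (SE 0.22). The retrogene Rps23rg1 was at 0.02 and -0.51 with vehicle and -0.68 and -0.53 with AP (log2 fold change -0.35, SE 0.27, limma adjusted p = 0.82, and -0.62 to -0.09 with a mouse left out), its vehicle replicate 2 and AP replicate 2 almost level, and Rps19bp1 gave 0.00 (SE 0.25).

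Rpl3l had the largest difference of the 84 genes and the least certain one. Its protein takes the place of RPL3 in the ribosomes of skeletal and heart muscle. It was at -2.96 and 1.42 in the vehicle mice and at 0.56 and -0.45 in the AP mice, so both AP mice lay between vehicle mice that were 4.37 apart. The log2 fold change of 0.83 had a standard error of 1.50, a 95% interval of -3.14 to 4.80 and a limma adjusted p of 0.92. Without vehicle replicate 1 it was -1.36, and without vehicle replicate 2 it was 3.01, with an unadjusted p under 0.05. Rpl3l was then the only 1 of the 84 genes to reach that level.

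Skeletal muscle genes followed the same order over the arrays. All 15 genes of a muscle list (among them Acta1, Ckm and Myh4) were measured, 14 of them well above background on all 4 arrays, and their summed level was 107.03 and 1279 in the vehicle mice and 814 and 471 in the AP mice. Each of the 15, like Rpl3l, was lowest in vehicle replicate 1, highest in vehicle replicate 2, and higher in AP replicate 1 than in AP replicate 2. In this scaling all 15 had a higher mean with AP (median log2 fold change 0.89) and 0 had an unadjusted p under 0.05. The part of muscle RNA in the Rpl3l difference was not tested. Vehicle replicate 2 was also the highest for 8 measured leukocyte markers of 12 listed, with a summed level of 109 against 31.7 in the other vehicle mouse and 38.4 and 36.2 in the AP mice. The 8 measured macrophage markers of 9 listed summed to 37.2 and 49.2 with vehicle and 30.2 and 28.7 with AP. The 5 measured white adipose markers of 8 summed to 49.1 and 57.3 against 36.4 and 44.7, but their directions were mixed. By their means 3 were lower with AP (Lep, Nnat and Retn) and 2 higher (Nrip1 and Psat1). Retn, the brightest in every mouse, made up most of that sum, at 5.50 and 5.40 with vehicle and 4.98 and 5.16 with AP. Whether the sum follows the amount of white fat was not tested. On the array of vehicle replicate 2 the median deviation of the subunit and stalk genes was 0.02, and without that mouse the median log2 fold change over the 84 genes was -0.01.

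**Figure D2:**
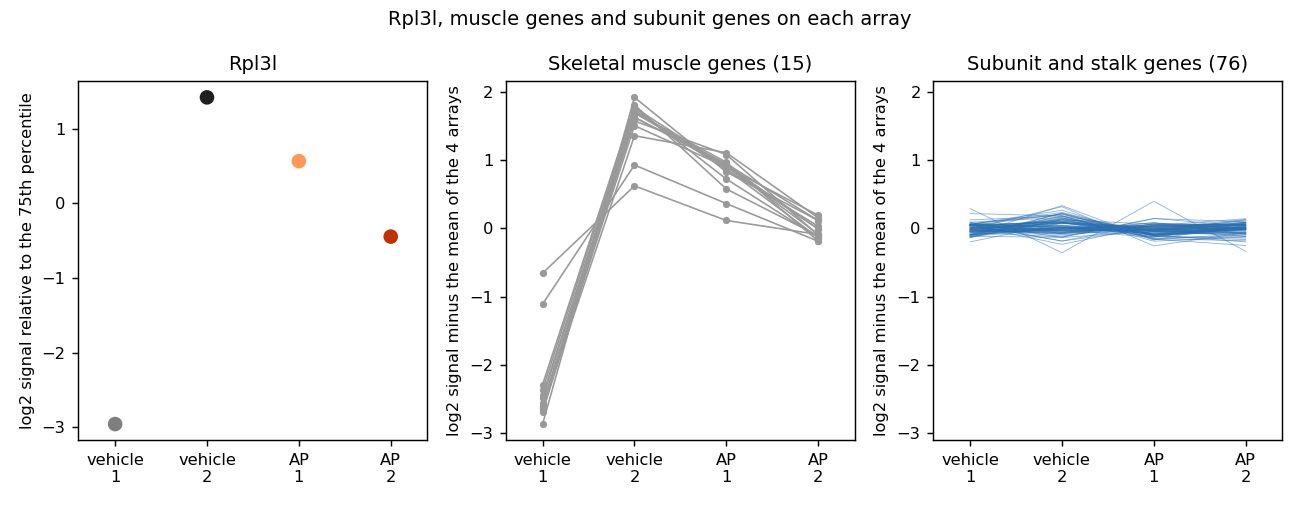
Level of Rpl3l on each array (left, log2 relative to the 75th percentile), and the log2 level minus the mean of the 4 arrays for 15 skeletal muscle genes (middle) and for the 76 subunit and stalk genes (right, on the same vertical scale as the middle panel). Rpl3l and the muscle genes are lowest in vehicle replicate 1 and highest in vehicle replicate 2, while the lines of the subunit genes stay near 0 on every array.

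Rpl21 was the one subunit gene read only by dim probes. The brighter of its probes was at -1.45 and -2.10 with vehicle and at -1.35 and -2.08 with AP (log2 fold change 0.06, SE 0.38). Each replicate 1 was higher than each replicate 2, with no separation by treatment, so its wide interval reflects a distance of 0.65 between the vehicle mice and of 0.74 between the AP mice.

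Where a gene had several probes they mostly gave the same small values. Of 172 probes, 166 were measured, and 0 of these had an unadjusted p under 0.05 by limma. For the 50 genes with several measured probes, the median distance between the highest and the lowest log2 fold change was 0.13, it was under 0.3 for 45 genes and it reached 1 for 0 genes. The signs differed for 19 of the 50, as happens for values this close to 0.

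**Figure D3:**
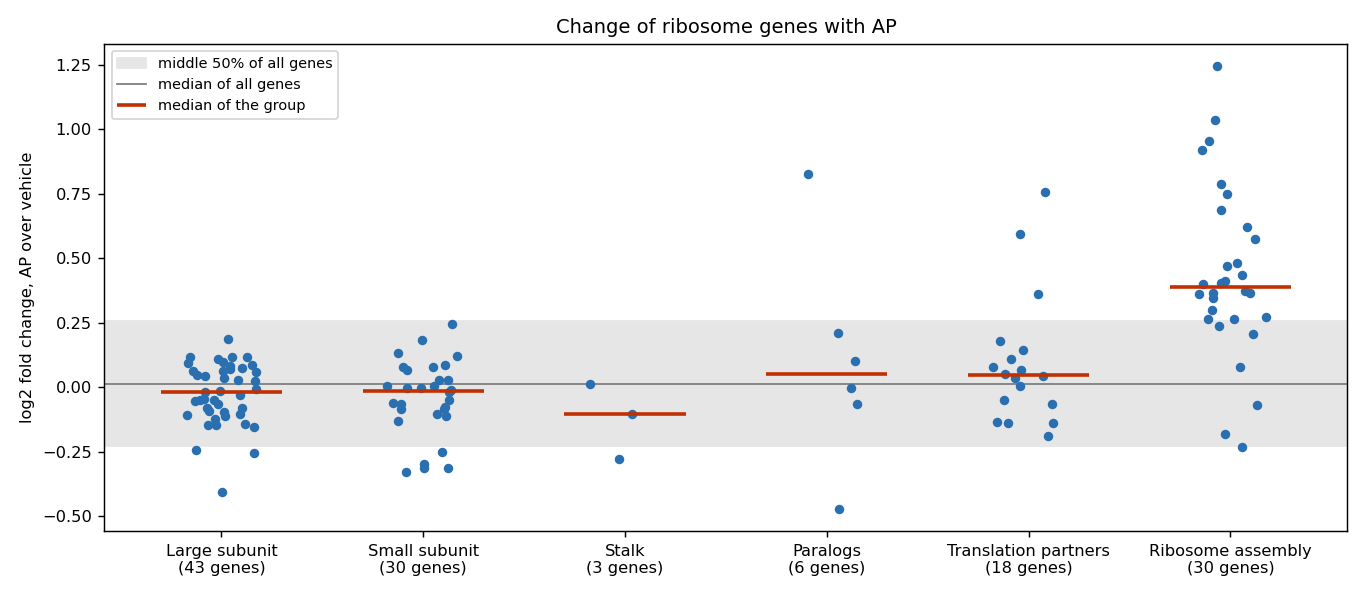
Log2 fold change, AP over vehicle, of each gene (points, spread sideways only for legibility) in the classes of ribosomal protein genes and in the lists of translation partners and ribosome assembly genes; red bars are medians, the grey line and band the median (0.01) and the middle 50% (-0.23 to 0.25) of all genes. Subunit genes fill a narrow band around 0, with medians of -0.02 for the large and -0.01 for the small subunit, while 27 of 30 assembly genes lie above 0 with a median of 0.39.

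The translation partners are genes, mostly elongation and initiation factors, whose mRNAs commonly carry a TOP sequence as ribosomal protein mRNAs do. All 18 were measured, 12 were higher and 6 lower with a median log2 fold change of 0.05, 0 passed the adjusted threshold and 1 had an unadjusted p under 0.05 (3.78% of all genes had one and were higher). That gene was Npm1, which encodes a nucleolar chaperone of ribosome assembly, at 5.05 and 4.76 with vehicle and 5.80 and 5.53 with AP (log2 fold change 0.76, SE 0.24, limma adjusted p = 0.80). Both AP mice lay above both vehicle mice. Eif4b, whose protein assists the helicase that unwinds the mRNA leader, was at 2.98 and 2.88 against 3.71 and 3.34 (0.59, SE 0.24), and Eef1g, a subunit of the elongation factor that recharges eEF1A, at 4.44 and 4.41 against 4.37 and 4.10 (-0.19, SE 0.22). Npm1 and Eif4b were named after their values were seen.

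The assembly genes, whose products transcribe and process ribosomal RNA and build the subunits, were mostly higher with AP by their means, though no gene passed the test. Of 30 genes, all measured, 27 were higher and 3 lower, with a median log2 fold change of 0.39 and quartiles of 0.27 and 0.61, against a median of 0.01 over all genes. Their median stayed above 0 under every scaling and background correction tried, between 0.24 and 0.47. Both AP mice were above both vehicle mice for 19 of the 30 (63.3%, against 20.1% of all genes) and below both for 0 (against 17.3%). None passed the adjusted threshold, and 5 had an unadjusted p under 0.05, all of them higher (3.78% of all genes were). The list was chosen with earlier results of these data known, and no test of the list was made.

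Gnl3, which encodes the nucleolar GTPase nucleostemin, was at 0.58 and 0.08 with vehicle and at 1.11 and 1.62 with AP (log2 fold change 1.04, SE 0.31, limma adjusted p = 0.80). Both AP mice were above both vehicle mice, and the value stayed between 0.78 and 1.29 with any mouse left out. The other 4 genes under an unadjusted 0.05, named after their values were seen, were Ddx21, an RNA helicase of the nucleolus (0.95, SE 0.35), Ubtf, the factor that opens ribosomal DNA to RNA polymerase I (0.92, SE 0.25), Nop58, a core protein of the particles that methylate ribosomal RNA (0.62, SE 0.23), and Polr1b, the second largest subunit of RNA polymerase I (0.57, SE 0.20). Their AP mice all lay above their vehicle mice, which adds little because these genes were picked for a low p. Ubtf is given by the brighter of its 2 probes, at 8.41 and 8.42 with vehicle and 9.57 and 9.09 with AP. Those levels stood far above the median level of the assembly list, 1.67 in vehicle replicate 1. Whether that probe reads Ubtf alone was not tested. Myc, the transcription factor that drives ribosome production, had the largest log2 fold change of the list, 1.24 (SE 0.87), but it rested on vehicle replicate 1: its levels were -2.96 and -0.39 with vehicle and -0.33 and -0.53 with AP, and without that replicate the log2 fold change was -0.04. The lowest was Bysl, a factor of small subunit maturation, at 3.59 and 2.85 against 2.38 and 3.60 (-0.23, SE 0.51), where the mice overlapped.

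The assembly genes were not equally high in both AP mice. Their median deviation from the mean of the 4 arrays was -0.08 and -0.29 on the vehicle arrays and 0.05 and 0.30 on the AP arrays. Trib3 and Ddit3 were likewise highest in AP replicate 2. Without AP replicate 2 the median log2 fold change of the list was 0.20 and 23 of 30 genes were higher, and without AP replicate 1 it was 0.53 and all 30 were higher. Whichever mouse was removed, the median over the ribosomal protein genes stayed between -0.05 and -0.01.

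**Figure D4:**
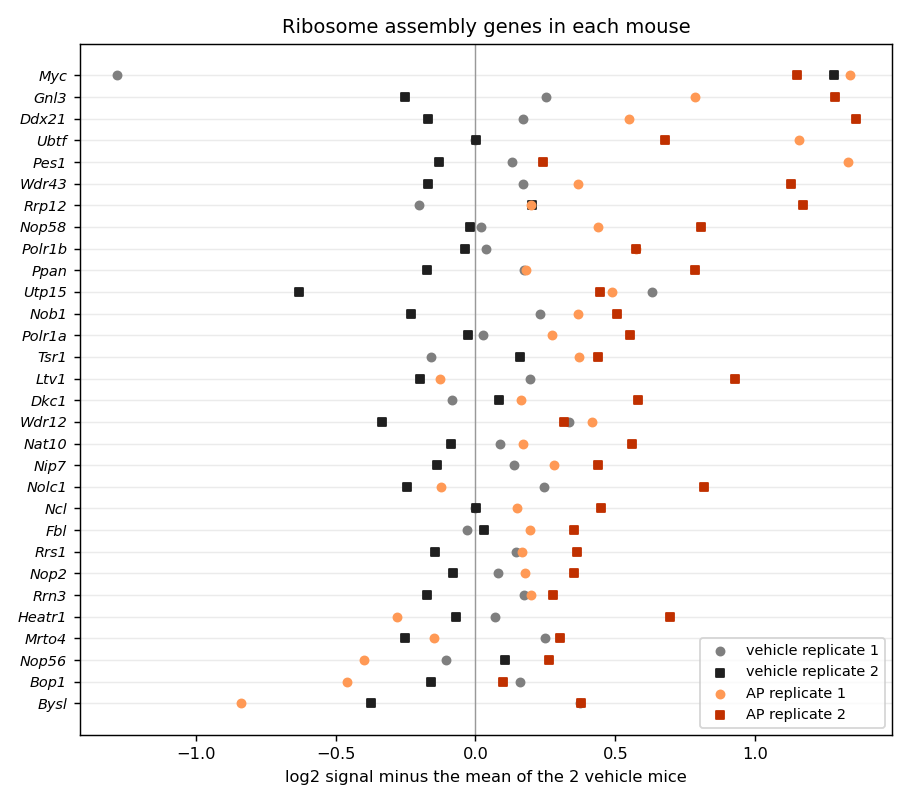
Log2 level of each of the 30 ribosome assembly genes in each mouse, as the difference from the mean of the vehicle mice, with genes ordered by their log2 fold change; circles are replicate 1, squares replicate 2, grey and black vehicle, orange and red AP. AP points lie right of both vehicle points for 19 genes, the red squares of AP replicate 2 reach furthest for many of them, and the Myc vehicle points lie 2.56 apart.

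The same letters were counted at the starts of the other genes. Among 25 assembly genes with a promoter in the table, 0 had the pyrimidine run at the annotated start and 5 (20%) had it within 5 bases, where 21.2% of all genes did, and CGGAAG was present in 11 (44%). Among 12 translation partners with a promoter, 2 (16.7%) had the run at the start and 5 (41.7%) within 5 bases, and CGGAAG was present in 4 (33.3%). TGATGCA stood in 0 promoters of either list. Within the 56 subunit and stalk genes, the median log2 fold change was -0.04 for the 26 with a run within 5 bases of the start and -0.02 for the others, it was -0.01 for the 13 with a run exactly at the start and -0.03 for the others, and it was -0.01 for the 40 with CGGAAG and -0.10 for those without. No test of these differences was made.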

How the data were processed

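RNA of BAT from 4 Tg mice, 2 given vehicle and 2 given AP, was hybridised to Agilent one-colour arrays, which Agilent Feature Extraction 10.7.1.1 read per the file headers. The deposited intensity values used here are its processed signals, background-subtracted by that software. The authors also deposited a table of log2 values for 24868 probes, scale log2 by comparison with the arrays (lowest r between array differences 0.9998), centring not stated, with column medians of -0.28, -0.16, -0.44 and -0.29; it served as an alternative. The dose in the labels is 1 ng per g, and the study's text gives 0.05 mg per kg.

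Each array's log2 signal was reduced by that of its 75th percentile over non-control probes. Of 55681 probes, 26582 were named through the RefSeq mouse table of GRCm38.p6, used for names and promoters only, giving 20145 genes. A probe was tested where both mice of either group had it well above background (24973 probes, of 12791 genes). The tool was limma 3.58.1 in R 4.3.3 (lmFit, eBayes), with Benjamini-Hochberg adjustment over these probes and a threshold of 0.05. A gene is given by its probe of highest mean signal, without reading 1 probe's level against another's. No set test was run. Tested on simulated data of the same size, limma called 0 of 67 probes changed by 1 on the log2 scale, 0 of 67 changed by 2 and 22 of 66 changed by 4. Precision is limited by there being 4 arrays.

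The members and gene lists were chosen with earlier results of these data known. Named members were the 5 highest and 5 lowest log2 fold changes, the stalk genes with Rpsa, the paralogs, and Rpl5, Rpl11, Rpl13a, Rpl22, Rps6 and Rps27a; outside them Trib3, Ddit3 and the 2 highest and 2 lowest of the pooled partner and assembly lists. Alternatives were background correction by normexp (offset 50) on the median spot signal (the mean was not used here), quantile and median scaling, the authors' log2 values, no filter, presence on all arrays, a variance trend, a replicate block, the methods' t-test, the mean of a gene's probes and leaving out each mouse. Some items are not reported here.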

Additional observations from a re-analysis of the deposited data

How the results depend on the processing

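No probe and no gene of the ribosomal protein, partner or assembly lists passed the adjusted threshold under any of the 10 alternatives that kept all mice or with any mouse left out. With no filter on dim probes, 2610 probes had an unadjusted p under 0.05 in place of 1515, a larger number of probes having been tested, and 1003 to 2178 with a mouse left out. Among ribosomal protein genes that count was 0, and it was 1 with normexp, 1 with a variance trend, 9 with the t-test and 0 to 1 with a mouse left out. Their median log2 fold change of -0.016 became -0.076 with normexp, 0.068 with each array's median, -0.194 in the authors' values, -0.053 as the mean of a gene's probes, -0.049 over all 166 measured probes (an alternative chosen after seeing the data), -0.001 with quantile scaling, and -0.052 to -0.0056 with a mouse left out. Relative to all genes (also chosen after seeing the data) it was -0.027, and it was -0.088 with normexp, -0.086 with no filter and -0.108 (without vehicle replicate 1) to 0.0052 (without vehicle replicate 2). Partner genes with an unadjusted p under 0.05 numbered 1, and 2 with normexp, 2 with a variance trend, 0 with the t-test, 2 as the mean of probes and 0 to 1 with a mouse left out. Their median of 0.048 was -0.113 in the authors' values and -0.023 to 0.144 with a mouse left out, and relative to all genes -0.025 with no filter and -0.005 to 0.081 with a mouse left out. Assembly genes with an unadjusted p under 0.05 numbered 5, and 2 in the authors' values, 3 with no filter, 2 with the replicate block, 1 with the t-test and 1 to 4 with a mouse left out. Their median was 0.199 (without AP replicate 2) to 0.529 (without AP replicate 1), and 0.194 to 0.511 relative to all genes. The cause of these differences was not tested.

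Of 29 single genes, 11 changed sign under an alternative that kept all mice, all from small values. With normexp Rplp2 was -0.045, Rps27l 0.0068, Rpl11 -0.047 and Rpl22 -0.156. In the authors' values Rplp2 was -0.150, Rpl39l -0.060, Rps4l -0.021, Rpl5 -0.100, Rpl11 -0.261, Rpl22 -0.102, Rps6 -0.084 and Rps27a -0.157. With each array's median Rpl36al was 0.019, Rps27l 0.083 and Rpl13a 0.039, with quantile scaling Rps27l was 0.022, and as the mean of probes Rpl11 was -0.068 and Rpl13a 0.110. With a mouse left out, 10 genes changed sign: Rpl3l ran from -1.36 to 3.01, Rplp2 from -0.032 to 0.054, Rpl36al from -0.25 to 0.11, Rpl39l from -0.23 to 0.43, Rps27l from -0.25 to 0.24, Rpl11 from -0.071 to 0.16, Rpl13a from -0.15 to 0.062, Rps27a from -0.00074 to 0.25, Bysl from -0.84 to 0.38 and Myc from -0.038 to 2.53.

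The labels do not say whether mice with the same replicate number were paired. The deviations of such mice from their group means correlated at -0.13. Within each group the deviations mirror each other, so this value is the same for either replicate number. It cannot decide whether the numbers pair mice. With the replicate number as a block, no probe was called (0 of 24973), and the median over ribosomal protein genes was -0.016, as without it. All arrays shared 1 slide and 1 scan, so no slide or scan block was run. The counts of genes at least 1.2-fold apart and of separate groups under another scaling were added after seeing the data.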
